A study of Mus musculus with 9 samples.

Results

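The genes Dntt, Rag1, Rag2, Vpreb1, Vpreb3, Igll1, Ebf1 and Pax5, which mark pro-B and pre-B cells, were followed in the bone marrow (BM) of 9 mice. They are 8 of the 53172 gene names in the count table and were taken by name, and a name with fewer than 10 counts over all mice was set aside. By this rule 4 of the 8 genes were described (Dntt, Vpreb3, Ebf1 and Pax5) and 4 were set aside, of which 3 were at 0 in every mouse. The members described were therefore chosen by their total counts. The lowest total among the members kept was 538 counts, for Vpreb3, and the highest among those set aside was 2, for Rag2, so no member was close to the limit. Dntt gave the group its name with earlier results of these data known.

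RNA-seq was performed on 3 mice in each of 3 groups, BMT, CDSCs and Health. BMT mice were irradiated with 9.5 Gy and received 500000 BM cells, and CDSCs mice had the same irradiation and received 500000 cells freshly digested from costal cartilage of newborn mice (CDSCs, costal cartilage-derived stem cells). Per the study's methods, recipients were wild-type C57BL/6J mice, 16 weeks old at transplantation, donors carried CD45.1 or ZsGreen, BMT donors were newborn or adult, and the labels do not say which. Health mice were age-matched and were not transplanted, and BM was collected 2 weeks after transplantation. The labels describe all BM cells, whereas the methods state that equal amounts of CD45+ and CD45- cells were sequenced and merged. Which of these holds for the deposited counts is not clear. If the methods hold, the share of blood cells in a library was partly set by the protocol. Donor cells and surviving recipient cells were read together. In such bulk samples, fewer cells of a type and less RNA per cell cannot be told apart. The mice of a group are numbered, and nothing else is stated about litters or cages.

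B lymphocytes arise in BM from lymphoid progenitors that pass through pro-B and pre-B stages. The transcription factors Ebf1 and Pax5 switch on and hold the B-lineage program. The Rag1 and Rag2 recombinase cuts immunoglobulin gene segments, and terminal deoxynucleotidyl transferase, encoded by Dntt, adds bases at the joints before they are sealed. Vpreb1 and Igll1 form the surrogate light chain of the pre-B cell receptor (pre-BCR), and Vpreb3 encodes a related protein of early B cells. Pax5 stays on in mature B cells, and Dntt and Rag1 are also used by immature T cells, so a single one of these genes does not define a pro-B cell.

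The 250 bases before the RefSeq transcription start of each of the 4 described genes are shown because the question was whether these genes move together. Coordinates are GRCm38.p6, and each sequence reads 5′ to 3′ along the gene's own strand. Capitals mark 2 motifs, the octamer bound by POU factors (ATGCAAAT, or ATTTGCAT on the other strand) and the E-box bound by E2A proteins (CANNTG, the same on both strands), and overlapping E-boxes were each counted.
Dntt, chr19:41029025-41029274, plus strand: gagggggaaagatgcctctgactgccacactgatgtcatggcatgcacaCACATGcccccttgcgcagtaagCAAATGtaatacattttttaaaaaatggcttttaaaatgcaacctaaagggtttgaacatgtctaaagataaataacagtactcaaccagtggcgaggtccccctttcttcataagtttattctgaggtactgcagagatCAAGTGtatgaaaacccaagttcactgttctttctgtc
Vpreb3, chr10:75948050-75948299, plus strand: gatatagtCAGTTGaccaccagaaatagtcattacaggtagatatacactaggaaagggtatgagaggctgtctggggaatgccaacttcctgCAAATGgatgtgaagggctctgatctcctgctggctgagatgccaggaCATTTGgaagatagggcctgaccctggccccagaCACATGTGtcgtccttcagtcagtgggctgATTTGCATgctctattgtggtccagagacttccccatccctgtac
Ebf1, chr11:44617850-44618099, plus strand: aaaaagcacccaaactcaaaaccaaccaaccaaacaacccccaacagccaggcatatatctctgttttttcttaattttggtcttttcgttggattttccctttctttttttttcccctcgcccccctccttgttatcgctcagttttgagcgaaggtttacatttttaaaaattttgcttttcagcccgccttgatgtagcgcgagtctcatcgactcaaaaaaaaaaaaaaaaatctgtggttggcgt
Pax5, chr4:44710695-44710944, minus strand: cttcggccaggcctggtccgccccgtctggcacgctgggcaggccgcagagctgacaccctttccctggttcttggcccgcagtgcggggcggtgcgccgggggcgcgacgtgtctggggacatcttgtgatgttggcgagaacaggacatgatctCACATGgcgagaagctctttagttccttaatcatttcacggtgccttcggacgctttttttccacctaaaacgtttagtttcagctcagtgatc

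The octamer was found once before Vpreb3 and not before Dntt, Ebf1 or Pax5. Of all 32851 RefSeq promoter windows of this length, 526 (1.60%) held it. E-boxes numbered 3 before Dntt, 5 before Vpreb3 and 1 before Pax5. The Ebf1 window shown held 0, and the window of its other RefSeq start held 1. An E-box is common, present in 66.2% of all windows. These matches describe the letters of the windows and say nothing of binding.

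Total counts were between 8741155 and 10181289 per mouse, and 28221 names had a count in at least 1 mouse. Before the B-lineage genes were read, gene names were checked against genes that nearly every cell expresses, a list of 273 ribosomal, proteasome, respiratory chain, translation and splicing genes drawn up after the data were seen. Only 76 of these had a mean of at least 100 counts, while 155 (56.8%) had a mean under 10 and 49 were at 0 in all 9 mice. Among defining blood genes, Hbb-bs (adult beta globin) was at 0 in every mouse, Mpo (myeloperoxidase) had 1 to 3 counts and Mki67 (a marker of dividing cells) had 0. Actb (beta actin) had 20 to 37 counts. The olfactory receptor row Olfr648, which lies 349.5 kb from Hbb-bs, had a mean of 350395 counts. A count of 0 under a gene name in this table therefore cannot be read as absence of the transcript, and a high count may not belong to the gene named. The cause was not tested.

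The same check was made around each member, with the 6 nearest of these genes on its chromosome. Of the 6, 4 had a mean of at least 100 counts around Pax5, 4 around Vpreb3, 3 around Dntt, 3 around Vpreb1 and Igll1, 2 around Ebf1 and 1 around Rag1 and Rag2. The nearest to Pax5, Sec61b, had a mean of 2729 counts at 2.95 Mb. On the same stretch of chromosome 4, Vcp had 11221 to 16061 counts and Clta 4964 to 6986. By contrast, Snrpd3, only 0.43 Mb from Vpreb3, had a mean of 0.78 counts. Hnrnph1, the nearest to Ebf1, had a mean of 63.0 counts at 5.76 Mb, and Ndufb8, the nearest to Dntt, had a mean of 10.6 at 3.52 Mb. Within 45 Mb, all 4 of these genes around Pax5 were above 100 counts, whereas those around Vpreb3, Ebf1 and Dntt included both high and near-empty rows. The other 2 of the 6 nearest to Pax5 lay beyond this window and were near-empty. These were Uqcrh at 71.5 Mb (mean 0) and Eif2b3 at 72.5 Mb (mean 0.11). Genes still closer to these 3 had steady counts, with 499 to 889 for Smarcb1 near Vpreb3, 688 to 1110 for Rnf145 near Ebf1 and 723 to 1130 for Tm9sf3 near Dntt.

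**Figure D1:**
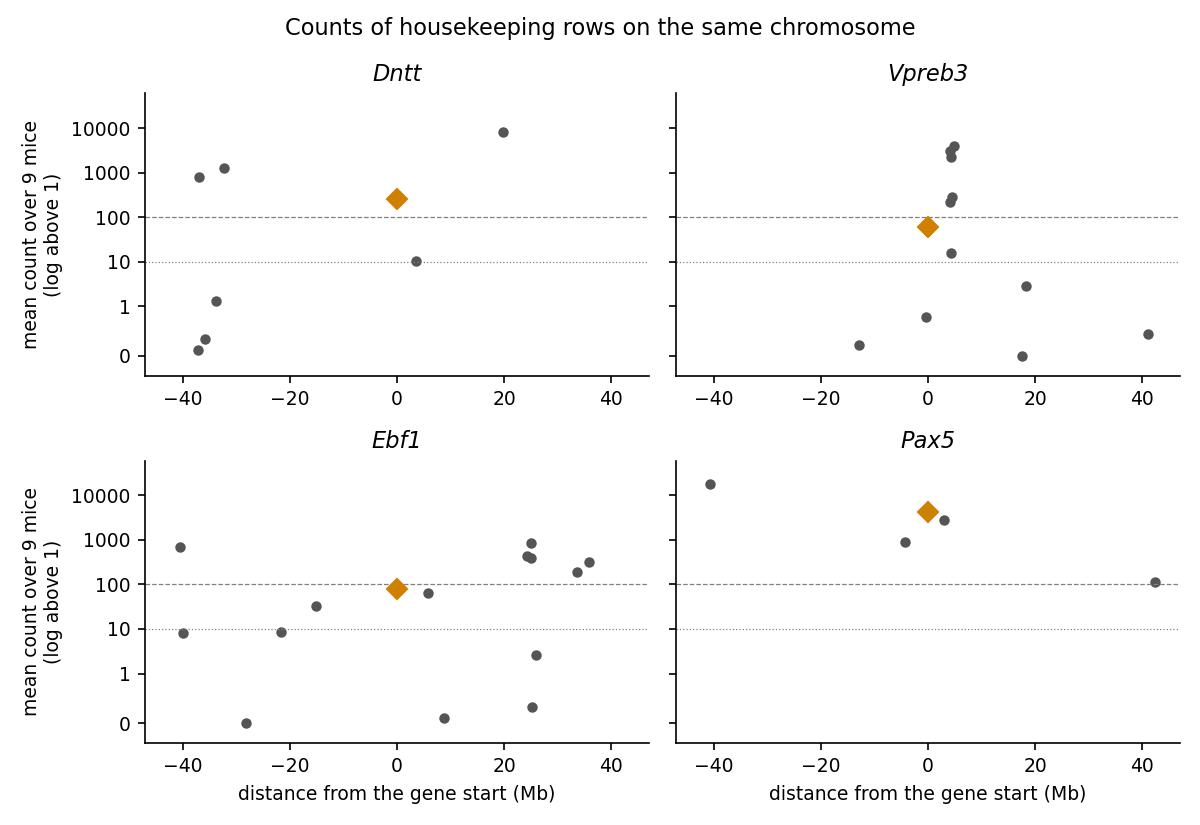
Mean count over 9 mice (y axis, log scale above 1) of genes that nearly every cell expresses (grey points) against their distance in Mb from the start of Dntt, Vpreb3, Ebf1 and Pax5, within 45 Mb. The orange diamond is the member itself, and the dotted and dashed lines mark 10 and 100 counts. All 4 points around Pax5 lie above 100, whereas each of the other panels has points near 0.

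The other 4 B-lineage genes could not be described. Rag1, Vpreb1 and Igll1 had 0 counts in all 9 mice, and Rag2 had 2 counts in BMT replicate 1 and 0 in the other mice. A count of 0 allows up to 3 counts, or 0.295 to 0.343 CPM, the count scaled to a library of 1e+06 counts. With the recombinase and the surrogate light chain at this floor in Health mice too, these rows gave no comparison between groups.

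**Figure D2:**
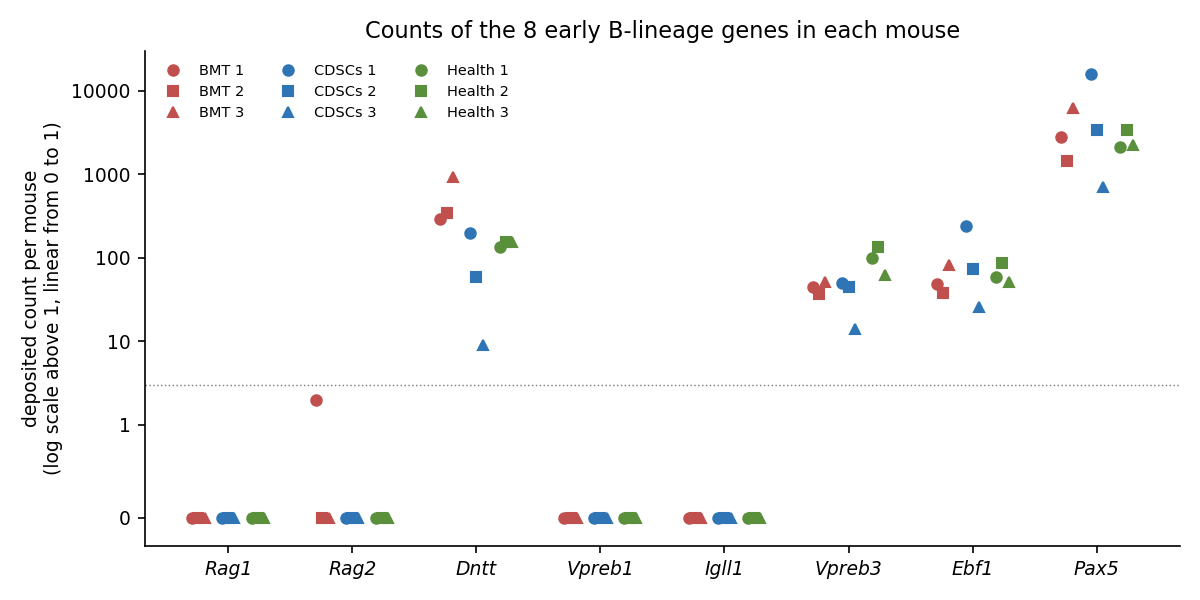
Deposited counts of the 8 genes (y axis, log scale above 1 and linear from 0 to 1) in each mouse, coloured by group and shaped by replicate, with a dotted line at the floor of 3 counts. Rag1, Vpreb1 and Igll1 lie at 0 in all mice, and Pax5 ranges from 707 to 15909 counts.

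The 4 described genes differed in level. Per length, in the deposited TPM (counts divided by gene length and then scaled for depth), Health mice had 65.0 ± 12.9 (SD, n = 3) TPM of Pax5, 25.5 ± 7.72 (SD, n = 3) of Vpreb3, 14.4 ± 1.04 (SD, n = 3) of Dntt and 1.24 to 1.83 of Ebf1 (n = 3). All 4 had counts in all 9 mice and were among the 12572 genes that passed the filter on low counts. A gene was called where its Benjamini-Hochberg adjusted p, over all these genes, was under 0.05 in the quasi-likelihood test of edgeR.

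Dntt, the template-independent DNA polymerase of V(D)J joining, was highest in the BMT mice. It had 291, 346 and 926 counts in the 3 BMT mice, 199, 59 and 9 in the CDSCs mice and 133, 155 and 154 in the Health mice. All 3 BMT mice were above every other mouse, the Health mice were close together, and CDSCs replicate 1 was above them while CDSCs replicates 2 and 3 were below. Scaled for depth with TMM, the level was 52.0 ± 31.8 (SD, n = 3) CPM in BMT, 16.1 ± 0.237 (SD, n = 3) CPM in Health and 8.83 ± 9.54 (SD, n = 3) CPM in CDSCs. The log2 fold change was -2.54 ± 0.722 (SE) in CDSCs against BMT, with an adjusted p of 0.113. BMT was 1.69 ± 0.695 (SE) above Health on the log2 scale, with an adjusted p of 0.251. Neither difference passed the test, although the mice did not overlap in either. The second was called when only the 6 mice of these groups were fitted (adjusted p 0.0310). Dntt in CDSCs against Health (log2 fold change -0.86 ± 0.711, adjusted p 0.436) did not pass and the mice overlapped. Without CDSCs replicate 1, Dntt was called lower in CDSCs in both comparisons, with a log2 fold change of -3.85 (adjusted p 0.0302) against BMT and -2.16 (adjusted p 0.0348) against Health. Without BMT replicate 3 the log2 fold change against BMT was -1.90 (adjusted p 0.249).

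Vpreb3 was highest in Health. Its counts were 99, 133 and 63 in Health, 45, 37 and 52 in BMT and 50, 45 and 14 in CDSCs. Each Health mouse lay above all 6 transplanted mice, and the transplanted groups overlapped each other. The level was 10.8 ± 3.76 (SD, n = 3) CPM in Health, 4.56 ± 0.637 (SD, n = 3) CPM in BMT and 3.69 ± 1.82 (SD, n = 3) CPM in CDSCs. Vpreb3 fell by 1.54 ± 0.402 (SE) on the log2 scale in CDSCs against Health (adjusted p 0.0275), which was the only call among the members. In BMT against Health the log2 fold change was -1.24 ± 0.395 (SE) and did not pass (adjusted p 0.144). CDSCs against BMT differed by -0.30 ± 0.409 (SE) on the log2 scale (adjusted p 0.731). The call rested on few counts, and it was lost (adjusted p 0.0516 to 0.0994) without BMT replicate 1, CDSCs replicate 2, Health replicate 1 or Health replicate 2, each left out alone. The processed pseudogene Gm16221 overlaps Vpreb3 on the other strand, and with the strand setting of the counting not given, reads where they overlap cannot be told apart.

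Ebf1, the factor that first commits progenitors to the B lineage, had 48, 38 and 81 counts in BMT, 237, 73 and 26 in CDSCs and 59, 86 and 52 in Health. CDSCs mice held both the highest and the lowest value of the 9, and all groups overlapped. The level was 5.63 ± 1.94 (SD, n = 3) CPM in BMT, 11.2 ± 10.6 (SD, n = 3) CPM in CDSCs and 7.19 ± 1.78 (SD, n = 3) CPM in Health. The log2 fold change was 0.99 ± 0.595 (SE) in CDSCs against BMT, 0.64 ± 0.589 in CDSCs against Health and -0.35 ± 0.603 in BMT against Health, with adjusted p of 0.401, 0.481 and 0.824. The antisense gene Gm12158 lies within Ebf1 and had 79 to 185 counts.

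Pax5, which holds cells in the B lineage, was the most abundant member and the most uneven within a group. Its counts were 2773, 1431 and 6127 in BMT, 15909, 3425 and 707 in CDSCs and 2117, 3393 and 2242 in Health. CDSCs replicate 1 was the highest and CDSCs replicate 3 the lowest of the 9 mice, with 22.5 times as many counts in the former. The level was 345 ± 222 (SD, n = 3) CPM in BMT, 662 ± 787 (SD, n = 3) CPM in CDSCs and 282 ± 65.1 (SD, n = 3) CPM in Health. The log2 fold change was 0.94 ± 0.820 (SE) in CDSCs against BMT, 1.23 ± 0.825 in CDSCs against Health and 0.29 ± 0.815 in BMT against Health, with adjusted p of 0.572, 0.327 and 0.897. Without CDSCs replicate 1 the first 2 turned to -0.68 and -0.39 (adjusted p 0.577 and 0.688), and those of Ebf1 turned to -0.11 and -0.46 (adjusted p 0.917 and 0.478). The neighbouring Vcp differed only 1.43-fold between its highest and lowest mouse.

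**Figure D3:**
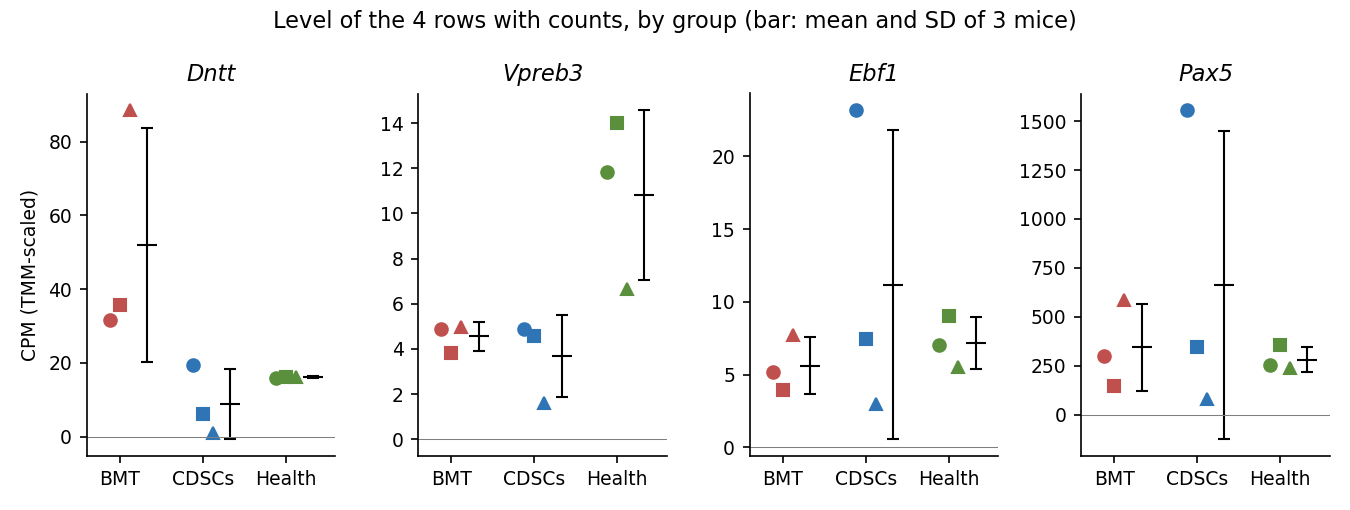
TMM-scaled CPM (y axis, its own scale in each panel) of the 4 described genes in each mouse, coloured by group and shaped by replicate as in the plot of counts, with the mean and SD of 3 mice in black. Dntt is highest in the BMT mice and Vpreb3 in the Health mice, whereas Ebf1 and Pax5 have their highest and lowest mouse in CDSCs.

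Across comparisons, 0 of the 4 tested members were called in CDSCs against BMT, where 1.03% of all genes were, and 0 of 4 in BMT against Health, where 2.44% were. In CDSCs against Health 1 of 4 was called, Vpreb3, which was lower, where 17.0% of all genes were called and 8.28% were called lower. Mice did not overlap for 1 of 4 members in CDSCs against BMT (all genes 22.5%), 2 of 4 in BMT against Health (29.1%) and 1 of 4 in CDSCs against Health (34.2%). In the direction concerned, the share of all genes was 11.4% for Dntt in CDSCs against BMT, 15.2% for Dntt and 13.9% for Vpreb3 in BMT against Health, and 17.5% for Vpreb3 in CDSCs against Health. The members' counts are too few to be read against these shares. The 3 comparisons share their groups and are not independent of each other. The median log2 fold change of the 4 members was 0.32 in CDSCs against BMT, -0.03 in BMT against Health and -0.11 in CDSCs against Health, beside 0.01, -0.02 and -0.02 for all genes, and in each comparison 2 members were above 0.

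**Figure D4:**
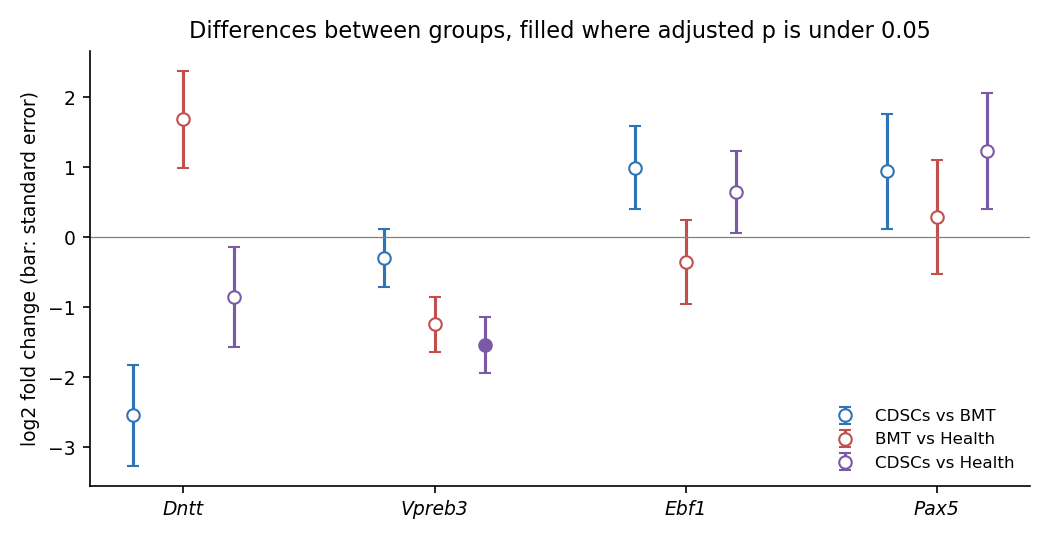
Log2 fold change with its standard error (y axis) of the 4 described genes in the 3 comparisons, with filled points where the adjusted p was under 0.05. The only filled point is Vpreb3 in CDSCs against Health at -1.54.

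The members did not share 1 pattern over the 9 mice. Correlations of log2 CPM are given as a description, since the mice share groups and depth. Ebf1 and Pax5 followed each other closely (Pearson's r 0.95, Spearman's rho 0.93), and without the 2 mice farthest from the median of Pax5, CDSCs replicates 1 and 3, a choice made after seeing the data, r was 0.78 over 7 mice. Dntt went with Pax5 only loosely (r 0.52, rho 0.40, and r 0.22 without those mice). With Vpreb3 (r 0.45, rho 0.12) and with Ebf1 (r 0.33, rho 0.22) Dntt had r of -0.28 and -0.22 without them. Vpreb3 had r of 0.44 with Ebf1 and 0.37 with Pax5, which became 0.62 and 0.13. CDSCs replicate 3 was the lowest of the 9 mice in all 4 genes, whereas the highest was BMT replicate 3 for Dntt, Health replicate 2 for Vpreb3 and CDSCs replicate 1 for Ebf1 and Pax5. The 4 rows therefore do not give 1 reading of early B cells, and only Ebf1 and Pax5 ordered the mice alike.

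Other B-cell genes with the Pax5 pattern were looked at after their values were seen. Blnk, the adaptor protein of the pre-BCR, had 318, 270 and 688 counts in BMT, 2122, 507 and 120 in CDSCs and 297, 447 and 316 in Health (r 0.98 with Pax5). Bach2, a transcriptional repressor of B cells, had 1646, 528 and 3008 counts in BMT, 9371, 2239 and 492 in CDSCs and 941, 1464 and 1038 in Health (r 0.97). Cd72, a surface receptor of B cells at most stages, had 1104, 477 and 1932 counts in BMT, 6802, 1416 and 530 in CDSCs and 905, 1571 and 1144 in Health (r 0.95). In each of the 3, CDSCs replicate 1 was the highest. Genes with an r of at least 0.9 to Pax5 made up 0.788% of those tested, and other rows close to it were Tlcd3b (r 0.99) and Wfs1 (r 0.99). Bach2, Cd72 and Pax5 all lie on chromosome 4, and Blnk on chromosome 19, where its gene ends 34.74 kb before Dntt.

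Although Blnk and Dntt are neighbours, their rows differed (r 0.47), with Blnk highest in CDSCs replicate 1 and Dntt in BMT replicate 3. The rows most like Dntt over the 9 mice were Opalin (r 0.98), Invs (r 0.97), Gm39168 (r 0.96), A930009A15Rik (r 0.93) and Zp3 (r 0.93), and by this measure Pax5 ranked 1277, Vpreb3 1788 and Ebf1 2811 of 12571 genes. Genes with an r of at least 0.9 to Dntt made up 0.111% of them. Opalin, a myelin protein of oligodendrocytes, lies on the opposite strand, and the 3′ ends of the genes face each other across 2.185 kb. It had 68, 60 and 136 counts in BMT, 18, 5 and 0 in CDSCs and 12, 23 and 21 in Health, and all BMT mice were above the others. Its log2 fold change was -3.49 ± 0.701 (SE) in CDSCs against BMT, with an adjusted p of 0.0504, and 2.12 ± 0.631 in BMT against Health, with an adjusted p of 0.121. Whether the 2 rows hold reads of 1 transcript was not tested. With their counts summed, an alternative chosen after seeing the data, the log2 fold change in CDSCs against BMT was -2.65 (adjusted p 0.107). Gm12159, a long noncoding RNA gene 94.775 kb beyond Ebf1, had 34, 34 and 101 counts in BMT, 228, 46 and 8 in CDSCs and 31, 19 and 22 in Health, with CDSCs replicates 1 and 3 at the ends as for Ebf1.

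**Figure D5:**
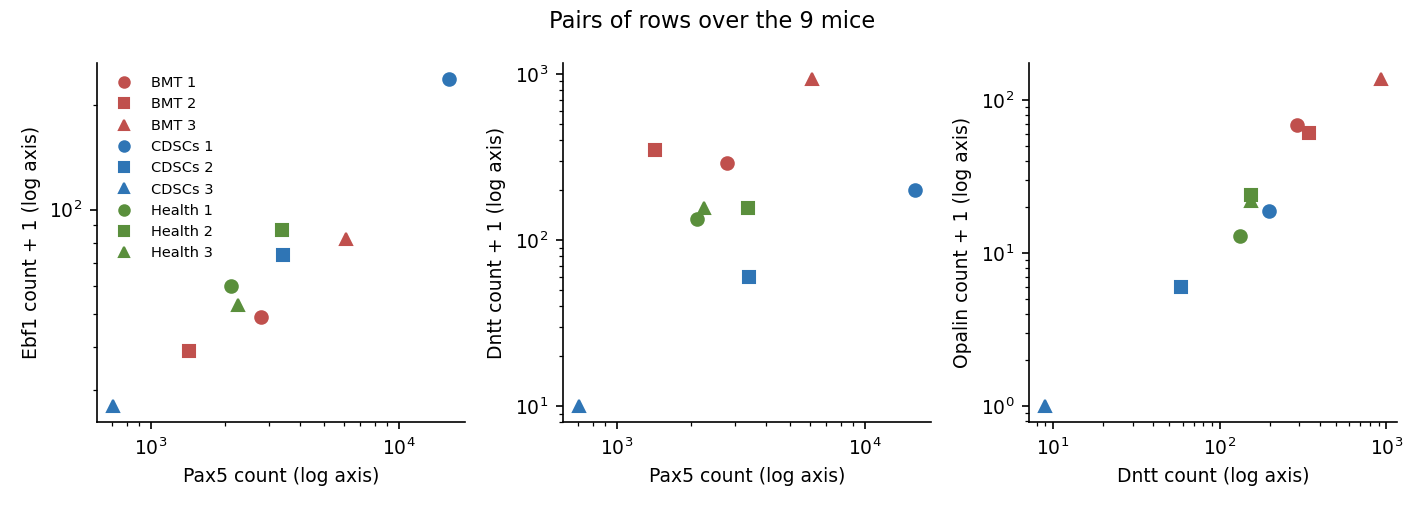
Counts of pairs of genes in the 9 mice on log axes (1 added on the y axes), coloured by group and shaped by replicate. Ebf1 rises with Pax5 (r 0.95), Dntt is scattered against Pax5 (r 0.52), and Opalin rises with Dntt (r 0.98).

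Of 30 other early B-lineage genes, 15 were tested and 0 were called in any comparison. The median log2 fold change was 0.11 in CDSCs against BMT, 0.24 in BMT against Health and 0.35 in CDSCs against Health, and 11 of the 30 had fewer than 10 counts, among them Ly6d and Cnr2 at 0. The lowest p-values were those of Cd79a, Flt3 and Irf4. Cd79a, a signalling chain of the B-cell receptor, had 55, 79 and 59 counts in BMT, 27, 25 and 35 in CDSCs and 32, 56 and 42 in Health. The log2 fold change of Cd79a in CDSCs against BMT was -1.11 ± 0.290 (adjusted p 0.0957), and the mice did not overlap. Its partner Cd79b kept between 659 and 846 counts in all mice, so it did not share the wide range of Pax5 and Blnk. Flt3, the growth factor receptor of lymphoid progenitors, had 2 to 16 counts, with a log2 fold change of 1.79 ± 0.626 in CDSCs against Health (adjusted p 0.0751). Irf4, a factor of pre-B and plasma cells, was at 1.18 ± 0.440 in CDSCs against BMT (adjusted p 0.192), with 109 counts in CDSCs replicate 1 and 17 to 58 in the other mice. Il7r, the receptor chain for interleukin-7 that pro-B cells depend on, had 986, 579 and 1901 counts in BMT, 3037, 712 and 838 in CDSCs and 449, 720 and 549 in Health. Its differences did not pass the test (adjusted p 0.11 to 0.698). The summed level of the 30 genes was 525 to 949 CPM in BMT, 540 to 1898 CPM in CDSCs and 503 to 576 CPM in Health.

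Of 17 pre-BCR signalling genes, 8 were tested, and 1 was called, Pik3cd, a lipid kinase of lymphocytes. It rose in CDSCs against Health by 0.92 ± 0.193 on the log2 scale (adjusted p 0.0116), from 49, 57 and 67 counts in Health to 131, 109 and 105 in CDSCs. Lyn, the kinase that starts B-cell receptor signalling and also serves myeloid cells, had a log2 fold change of -0.49 ± 0.180 in CDSCs against Health (adjusted p 0.0876). The kinase Btk and the phospholipase Plcg2 were at 0 in every mouse.

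Of 17 partners of V(D)J joining and DNA repair, 16 were in the table and 11 were tested. None was called in CDSCs against BMT or in BMT against Health. In CDSCs against Health, 2 rose and 1 fell. Lig4, the ligase that seals the joints after Dntt has acted, fell by 2.50 ± 0.470 on the log2 scale (adjusted p 0.00703). It had 31, 136 and 50 counts in CDSCs, 328, 305 and 540 in Health and 252, 340 and 205 in BMT, and every CDSCs mouse was below the others. Xrcc6 and Xrcc5 encode the Ku pair that binds broken ends. Xrcc6 rose by 0.57 ± 0.123 (adjusted p 0.0127) and Xrcc5 by 1.20 ± 0.356 (adjusted p 0.0445), the latter on 13 to 51 counts. The Xrcc5 call was lost in most fits that left out a mouse (adjusted p 0.0513 to 0.122). The median log2 fold change of the 11 genes was 0.02 in CDSCs against BMT, 0.17 in BMT against Health and 0.16 in CDSCs against Health.

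Markers of other cells that can carry these genes were read beside them. Of 15 mature B-cell genes 14 were in the table and 4 were tested. Fcer2a, the low-affinity IgE receptor of mature B cells, had 115, 131 and 78 counts in Health, 13, 21 and 41 in BMT and 7, 1 and 3 in CDSCs. Fcer2a fell by 2.23 ± 0.440 on the log2 scale in BMT against Health (adjusted p 0.0266) and fell by 4.92 ± 0.554 in CDSCs against Health (adjusted p 0.000564). The first of these calls was lost (adjusted p 0.107 to 0.133) without BMT replicate 1, BMT replicate 2, Health replicate 1 or Health replicate 2. Cd37, a tetraspanin of leukocytes, rose by 0.53 ± 0.154 in CDSCs against Health (adjusted p 0.0398). This call was lost in most fits that left out a mouse (adjusted p 0.0516 to 0.138). Cd74 and Ciita, which serve antigen presentation, were at 0, and Ms4a1 had 0 to 8 counts. The summed level of the mature B-cell list was 416 to 600 CPM in BMT, 399 to 1000 CPM in CDSCs and 454 to 527 CPM in Health. The highest of these sums, in CDSCs replicate 1, was mostly Cd72, with 668 CPM, which was already chosen above for its Pax5 pattern.

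Of 19 T-cell and thymocyte genes 10 were tested, and Cd4 was the only one called, higher in CDSCs against Health (17 of the 19 had a count). Cd28, a T-cell costimulatory receptor with 1 to 17 counts, had a log2 fold change of -2.71 ± 0.758 in BMT against Health (adjusted p 0.102). Ptcra, which marks thymocytes, was at 0, and the summed level was 478 to 506 CPM in BMT, 475 to 513 CPM in CDSCs and 437 to 477 CPM in Health. Of 11 plasmacytoid dendritic cell genes 4 were tested, and Bst2, a membrane protein also induced by interferon, fell by 1.30 ± 0.206 in CDSCs against BMT (adjusted p 0.0276) and fell by 2.10 ± 0.210 against Health (adjusted p 0.000342). Its defining gene Siglech had 1 count in all. Of 14 progenitor genes 4 were tested and 0 were called, with Hoxa9 at -0.92 ± 0.265 in CDSCs against BMT (adjusted p 0.117). The part of these cells in the Dntt values was not tested.

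Of 9 plasma-cell genes 6 were tested, and Ighg1, an immunoglobulin heavy chain, fell by 2.61 ± 0.739 in CDSCs against Health (adjusted p 0.0376). The Ighg1 call was lost in most fits that left out a mouse (adjusted p 0.0512 to 0.112). Of 18 neutrophil genes 5 were tested, and Mmp8 and Ltf (lactoferrin, 0 to 16 counts, higher against Health in both transplanted groups) were called. Mmp8, the neutrophil collagenase, had 35765, 31974 and 17924 counts in BMT, 5696, 7925 and 3593 in CDSCs and 22193, 27107 and 38523 in Health. In CDSCs it fell by 2.33 ± 0.343 against BMT (adjusted p 0.0194) and fell by 2.43 ± 0.344 against Health (adjusted p 0.00191). Of 16 erythroid genes 8 were tested, and in CDSCs against Health Gata1 and Tfrc were called lower. Of 19 proliferation genes 7 were tested and 0 were called, with Ccnb2, a mitotic cyclin, at 1.21 ± 0.450 in CDSCs against Health (adjusted p 0.0909). Under 10 counts were 9 of the 18 neutrophil, 6 of the 16 erythroid and 11 of the 19 proliferation genes, as were the 4 B-lineage genes set aside.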

How the data were processed

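BM of 9 mice (3 BMT, 3 CDSCs, 3 Health) was sequenced after poly(A) capture. Per the authors, FastQC and MultiQC served for quality control, Trim Galore for trimming and HISAT2 for alignment, and the submitters' processing notes name GRCm38. They deposited featureCounts counts per gene and, made from these, TPM. The annotation release and strand setting are not given in the sources used here. The lengths implied by counts and TPM were within 1% of GENCODE M21 for 95.7% of 27000 rows. The tables hold 0 other columns of per-sample values.

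Genes were kept with filterByExpr, which left 12572, scaled with TMM, and tested with edgeR 4.0.16 (glmQLFit, glmQLFTest, two-sided) in R 4.3.3 on all 9 mice in 1 fit with the group as factor. Genes with a Benjamini-Hochberg adjusted p under 0.05 were called. The SE of a log2 fold change was its absolute value divided by the square root of the F statistic of the test. The test was also run on simulated data in which every gene had the same spread. Its behaviour on rows as uneven as Pax5 was not tested. The p-values measure the spread between mice of a group. Levels are CPM with TMM, while summed levels of lists, the Cd72 level given beside them and the floors are CPM by library size. Floors of 3 counts cover counting error only. Correlations used log2 CPM with a prior count of 2. Promoters came from RefSeq (GRCm38.p6), and all 8 members had one. Other steps used Python 3.11.15, pandas 2.3.3 and matplotlib 3.10.9.

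Members and gene lists were chosen with earlier results of these data known. Smarcb1, Rnf145, Tm9sf3, Vcp and Clta were chosen after their values were seen. Named genes were the members, up to 3 genes of lowest p in each list of B-lineage genes and 1 in each other list, the 5 rows most like Dntt by Pearson's r, and neighbours of members. Blnk, Bach2, Cd72, Il7r, Cd79b and the genes given with only a range were added after their values were seen. Alternative fits used DESeq2 1.42.0, a likelihood ratio test in edgeR, scaling by library size alone, no filter, a minimum of 10 counts in each mouse, the 6 mice compared on their own, a replicate block, log2(TPM + 1) with limma 3.58.1, and each mouse left out. Columns of the authors' own comparisons were not present. Some genes of the lists are not reported here.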

Additional observations from a re-analysis of the deposited data

How the results depend on the processing

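Of 1644 fold changes of named genes under an alternative, 1615 kept their direction, 50 lost a call and 81 gained one, 30 of these without the filter. The member called, Vpreb3 in CDSCs against Health, was called under 8 of 9 other settings and in 5 of 9 fits that left out a mouse (log2 fold change -1.80 to -1.19). Dntt in CDSCs against BMT kept its direction throughout (-3.85 to -1.90 with a mouse left out) and was called with the likelihood ratio test (adjusted p 0.0215), without the filter, and without CDSCs replicate 1, and in CDSCs against Health it was called without the filter and without CDSCs replicate 1. In BMT against Health it was called without the filter and with only the 6 mice (adjusted p 0.0310). The fit without the filter also called Pax5 in CDSCs against BMT (adjusted p 2.57e-05), although its mice overlapped widely. The number of members called was 1 with the likelihood ratio test and 3 without the filter in CDSCs against BMT, 2 without the filter and 2 with only the 6 mice in BMT against Health, and 3 without the filter and 0 with only the 6 mice in CDSCs against Health. With a mouse left out it was 0 to 1, 0 to 1 and 0 to 2. The cause was not tested.

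All genes called in CDSCs against BMT numbered 129, and 706 with DESeq2, 730 with the likelihood ratio test, 1260 without the filter, 64 with at least 10 counts in every mouse, 7 with only the 6 mice and 2 to 491 with a mouse left out. In BMT against Health they numbered 307, and 709, 699 and 948 with DESeq2, the likelihood ratio test and no filter, 807 with only the 6 mice and 102 to 681 with a mouse left out. In CDSCs against Health they numbered 2134, and 1273 with only the 6 mice and 1071 to 2640 with a mouse left out. At an unadjusted p under 0.05, members numbered 1, 2 and 1 of 4 in these comparisons, and all genes 2343 (18.6%), 2117 (16.8%) and 4137 (32.9%). The 4 members are too few to be read against these shares. Under the replicate block 22, 197 and 1507 genes and 0, 0 and 1 members were called. Mice of the same number correlated at -0.34 to 0.22, and 3 of 9 correlated best with a mouse of their own number. The labels tie these mice by number only, and these few values cannot decide whether they shared a batch, litter or cage. Calls not made under the block were Fcer2a in BMT against Health (adjusted p 0.0821), Bst2 and Mmp8 in CDSCs against BMT (0.0557 and 0.0525) and Xrcc5 and Cd37 in CDSCs against Health (0.0851 and 0.0741).

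Calls of other genes were lost without 1 mouse: in CDSCs against BMT, Bst2 (without BMT replicates 1 or 2, CDSCs replicate 2 or Health replicate 2, adjusted p 0.0518 to 0.152) and Mmp8 (without BMT replicates 1 or 2, 0.0815 to 0.0865), and in CDSCs against Health, Pik3cd (without Health replicate 1, 0.0522), Xrcc6 (without CDSCs replicate 2 or Health replicates 1 or 2, up to 0.0594), Xrcc5 (without any mouse but BMT replicate 3 or CDSCs replicate 2, 0.0513 to 0.122), Cd37 (without BMT replicate 1, CDSCs replicates 2 or 3 or any Health mouse, 0.0516 to 0.138) and Ighg1 (without any mouse but CDSCs replicate 1 or Health replicate 2, 0.0512 to 0.112). With only the 6 mice, Bst2 and Mmp8 in CDSCs against BMT (0.0777 and 0.0754) and Xrcc5, Cd37 and Ighg1 in CDSCs against Health (0.0703, 0.0546 and 0.0841) were not called, nor was Cd37 on log2(TPM + 1) (0.0521).

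Some log2 fold changes turned when a mouse was left out. In CDSCs against BMT the ranges were -0.11 to 1.43 for Ebf1, -0.68 to 1.59 for Pax5, -0.20 to 1.81 for Cd72, -0.38 to 1.59 for Blnk, -0.29 to 1.81 for Bach2, -0.47 to 0.92 for Il7r and -0.99 to 1.40 for Gm12159, each negative without CDSCs replicate 1, and -0.54 to 0.048 for Vpreb3, positive without CDSCs replicate 3. In CDSCs against Health they were -0.46 to 1.08 for Ebf1, -0.39 to 1.75 for Pax5, -0.36 to 1.62 for Cd72 and -0.24 to 1.74 for Blnk, again without CDSCs replicate 1, and -0.29 to 0.041 for Invs. In BMT against Health they were -0.29 to 0.69 for Pax5, -0.27 to 0.42 for Blnk and -0.066 to 0.93 for Bach2, negative without BMT replicate 3, -0.60 to 0.25 for Cd72, -0.23 to 0.17 for Irf4, -0.025 to 0.33 for Xrcc5 and -0.31 to 0.21 for Mmp8. Irf4 in BMT against Health was also 0.052 by library size, 0.0057 without the filter and 0.048 on log2(TPM + 1), and Gm12159 in CDSCs against BMT was -0.019 on log2(TPM + 1). These turned values were not called. The correlations of Dntt with Vpreb3 and Ebf1 turned to -0.28 and -0.22 without 2 mice. The order of the groups in mean level was the same in CPM by library size and in TPM for all 4 members. By Spearman's rho only Invs of the 5 rows most like Dntt stayed among the first 5, and on log2(TPM + 1) Opalin, Invs and Gm39168 did. Rag1, Rag2, Vpreb1 and Igll1 were at or under the floor of 3 counts in each mouse, and the cause was not tested.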
